A study of Bos taurus with 6 samples.

Results

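The 10 genes described here mark fibro-adipogenic progenitors and preadipocytes or act early in adipogenesis, and they were chosen by name (PDGFRA, PDGFRB, DLK1, THY1, CD34, ZNF423, EBF1, EBF2, CEBPA and KLF5). CEBPA was not analysed here, and the other 9, of 22839 different symbols in the counts, had counts in every library and were tested. The libraries came from longissimus thoracis muscle of Hanwoo steers on conventional commercial feed, 1 library per steer. The high-NFMP group (high number of fine marbling particles, the small flecks of fat seen on the cut muscle) held steers 3-8, 10-8 and 10-9, aged 32.5, 33.8 and 34.5 months. The low-NFMP group held steers 3-1, 3-3 and 10-16, aged 37.8, 33.7 and 35.4 months. The steers were selected for their NFMP from a larger set of animals and drawn at random within each group, so the groups are phenotypes and not treatments, and the sources used here do not say what the numbers in a steer's label mean.

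Fibro-adipogenic progenitors are stromal cells that lie between muscle fibres and are a source of both fibroblasts and intramuscular adipocytes. They carry the receptor PDGFRA at their surface, and a cell that commits to fat switches on the zinc finger protein ZNF423 and the EBF factors, then the KLF and C/EBP factors, and at last PPARG, the master regulator of the adipocyte. Several of these markers are shared with other cells of muscle, since PDGFRB is also a pericyte receptor, CD34 is also on capillary endothelium and THY1 is also on fibroblasts and nerve.

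Between 16283873 and 17192750 reads were counted in a library. Levels are given as CPM, counts set relative to the size of the library, after scaling with trimmed mean of M-values (TMM) factors, and 1 CPM stood for between 15.1 and 18.2 counts. The 3′ method starts from the end of each transcript, and whether CPM grew with transcript length was not tested. The tissue label was checked with 10 muscle fibre genes, which summed to between 99390 and 123283 CPM in a library, against between 336 and 438 CPM for the 9 members together. In whole tissue, fewer cells of a type and less RNA per cell cannot be told apart.

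None of the 9 members passed the threshold of the study's methods, p below 0.05 unadjusted and a fold beyond 2, which 3.9% of the 15039 tested rows passed by edgeR's quasi-likelihood test (2.53% with the high-NFMP group above, 1.36% with it below). None had a Benjamini-Hochberg adjusted p below 0.05, which 0.685% of the rows had by edgeR. DESeq2 likewise gave none of the members such a p, with 287 rows past it, while limma after quantile normalization gave no row at all and so bears on no member. An unadjusted p below 0.05 was found for 1 member, PDGFRA, and for 11.5% of the rows. The log2 fold changes (high minus low NFMP) were above 0 for 5 members and below 0 for 4, and ran from -0.51 to 0.62, with a median of 0.37 against 0.02 over all tested rows. For 6 members (PDGFRA, PDGFRB, CD34, ZNF423, EBF1 and EBF2) the 95% interval of the fold change lay within a fold of 2 in either direction, and for THY1, DLK1 and KLF5 it reached beyond 2 on the higher side.

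**Figure D1:**
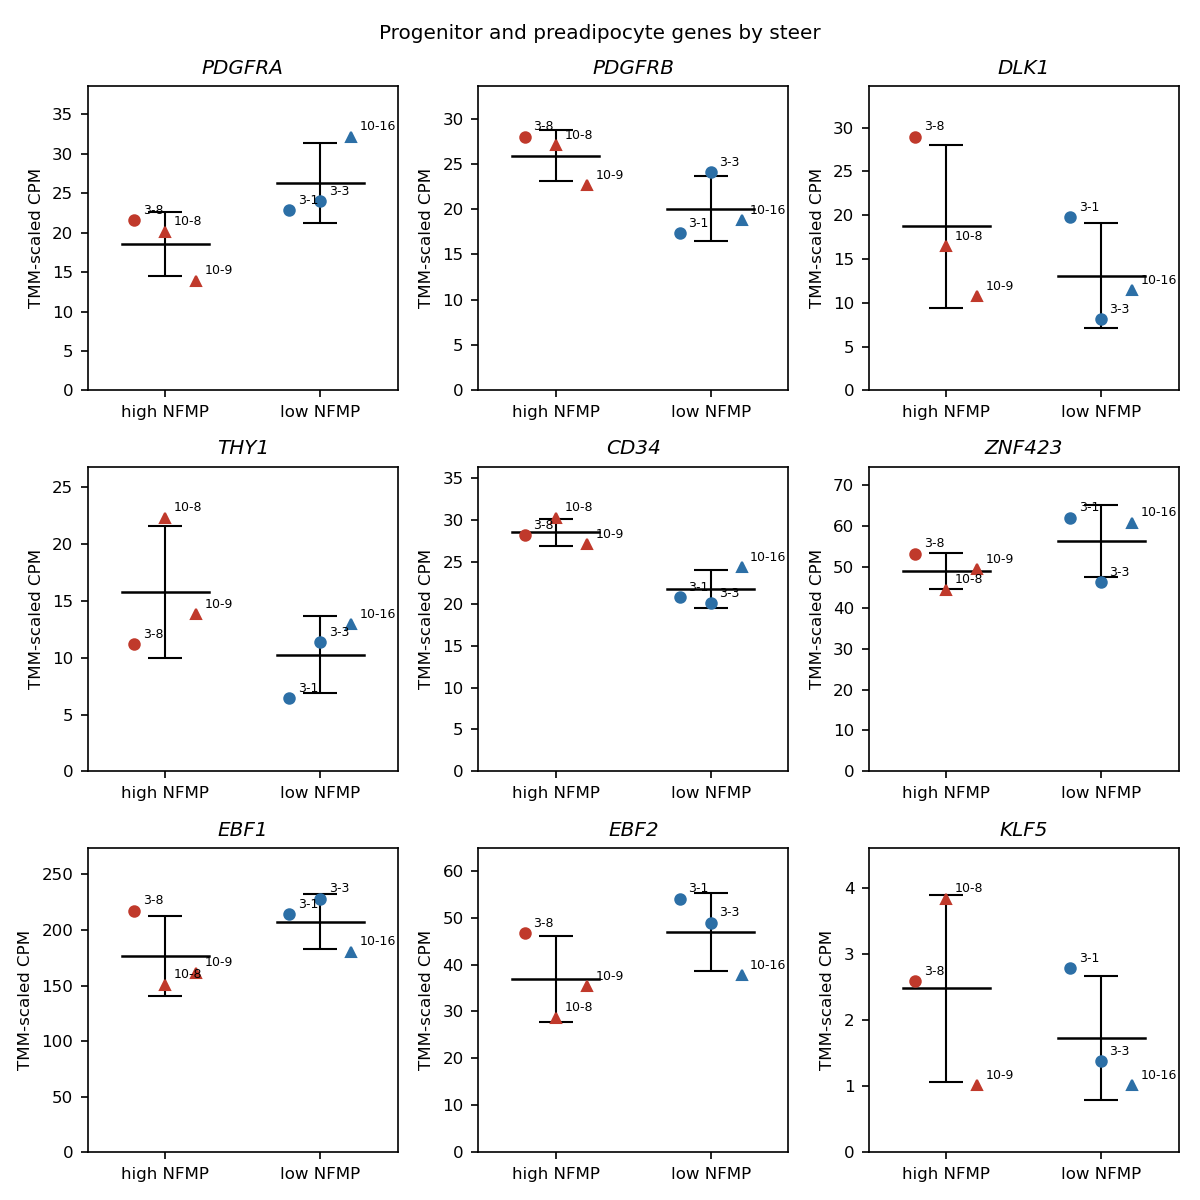
TMM-scaled CPM (vertical axis, from 0) of the 9 tested members in each steer, red for high NFMP and blue for low NFMP, with circles for a first label number of 3 and triangles for 10, and with the mean and SD of 3 steers in black. The groups are apart only for PDGFRA and CD34, and EBF1 and EBF2 are higher in every circle than in every triangle.

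**Figure D2:**
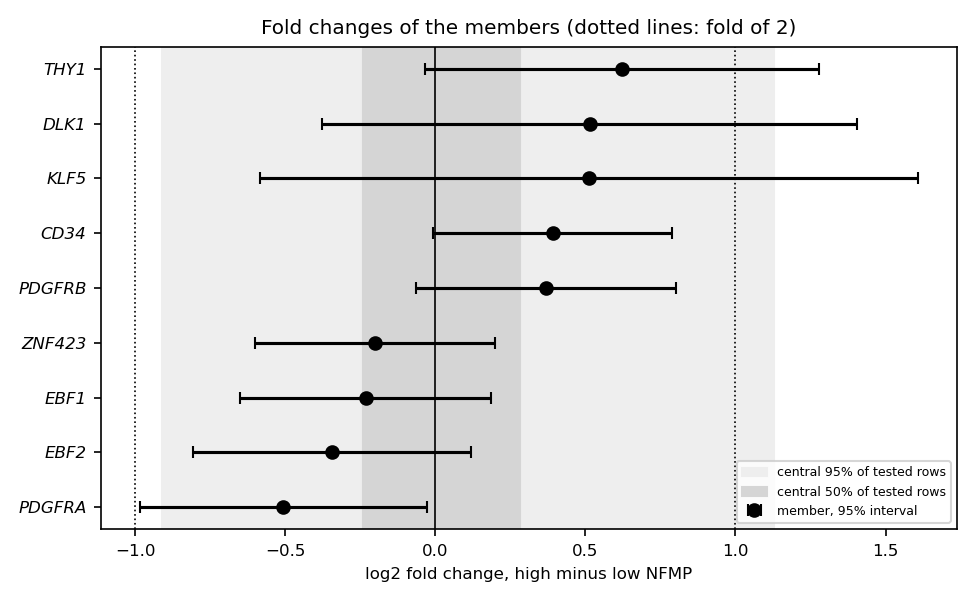
The log2 fold change (horizontal axis, high minus low NFMP) of each member with its 95% interval from edgeR, over grey bands for the central 50% and the central 95% of the 15039 tested rows. No member lies past the dotted lines at a fold of 2, and the interval of PDGFRA alone leaves out 0.

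The PDGF receptors, which bind platelet-derived growth factors and drive the growth of stromal cells, had values on opposite sides in the comparison. PDGFRA, the receptor that defines the progenitors, was at 21.6, 20.1 and 13.9 CPM in the high-NFMP steers 3-8, 10-8 and 10-9 and at 22.8, 24.0 and 32.2 CPM in the low-NFMP steers 3-1, 3-3 and 10-16. Every high-NFMP steer was below every low-NFMP steer, a pattern shown by 9.16% of the tested rows, but steers 3-8 and 3-1 differed little. The means were 18.5 ± 4.08 and 26.3 ± 5.07 CPM (SD, n = 3 each), a fold change of 0.704 (95% interval 0.506 to 0.98) or -0.51 ± 0.22 on the log2 scale (± standard error), at an unadjusted p of 0.0391 and an adjusted p of 0.408 by edgeR. Without steer 10-16 the log2 fold change was -0.31 and without steer 10-9 it was -0.32, with unadjusted p of 0.226 and 0.16 by edgeR. Among steers with a first label number of 3, the high minus low difference in log2 CPM was -0.12, and among those with 10 it was -0.94.

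PDGFRB, the receptor of pericytes and also of many progenitors, was at 27.99, 27.1 and 22.7 CPM in the high-NFMP steers and at 17.3, 24.1 and 18.8 CPM in the low-NFMP steers. The groups overlapped, because steer 3-3 lay above steer 10-9. The fold change was 1.29 (95% interval 0.957 to 1.74), with an adjusted p of 0.518 by edgeR. On the log2 scale that is 0.37 ± 0.20 (standard error), against 0.14 with age as a term in the fit and 0.52 without steer 3-3 (unadjusted p = 0.0452 by edgeR). The summed level of 12 mural markers was between 1483 and 2857 CPM in the high-NFMP steers and between 1772 and 1875 CPM in the low-NFMP steers, but most of it was DES, which muscle fibres also express. Without DES, a choice made after its level was seen, the sums were between 259 and 291 CPM and between 268 and 385 CPM. Their part in the PDGFRB values was not tested.

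The ratio of PDGFRA to PDGFRB within a library depends on the scaling of the library only through the 0.5 CPM added to each value. It was 0.776, 0.748 and 0.622 in the high-NFMP steers and 1.31, 0.998 and 1.69 in the low-NFMP steers. All 3 high-NFMP steers thus had fewer PDGFRA than PDGFRB reads, whereas in the low-NFMP steers PDGFRA was level with PDGFRB or above it. The log2 ratio was -0.49 ± 0.17 in the high-NFMP group and 0.38 ± 0.38 in the low-NFMP group (SD, n = 3 each), a difference of -0.87, and the exact two-sided permutation test gave p = 0.1, the smallest p that 3 against 3 allow (0.3 after adjustment over the 6 ratios computed). Set against 12 fibroblast matrix genes (collagens, DCN, FBN1 and others), PDGFRA had lower values in the high-NFMP group. The difference in log2 ratio was -0.75 with no overlap (exact permutation p = 0.1, adjusted 0.3). Both ratios hold the same PDGFRA counts, so they are not separate results. The matrix genes themselves summed to between 1175 and 1599 CPM in the high-NFMP steers and between 1050 and 1231 CPM in the low-NFMP steers. PDGFRB set against the mural markers differed by 0.12 in log2 ratio (exact permutation p = 0.8), and by 0.55 with no overlap (exact permutation p = 0.1) when DES was left out. ABCC9, the most counted mural gene after DES, was itself lower in every high-NFMP steer (124 against 164 CPM). A ratio without ABCC9 was not computed.

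The ligands of these receptors were also counted, and they are named here after their values were seen. None of the 4 passed the p and fold change threshold, while 3 had an unadjusted p below 0.05 by edgeR and groups that did not overlap, as did 11.5% and 17.1% of all tested rows. PDGFC, which acts mainly through PDGFRA, was at 13.9, 9.99 and 14.4 CPM in the high-NFMP steers and 16.5, 19.1 and 21.0 CPM in the low-NFMP steers, or -0.56 ± 0.22 as log2 fold change with its standard error (adjusted p = 0.34). PDGFD, which acts mainly through PDGFRB, was at 12.8, 14.6 and 10.3 CPM against 6.32, 7.55 and 8.59 CPM, or 0.75 ± 0.24 in the same measure (adjusted p = 0.232). PDGFC was thus lower in every high-NFMP steer, as PDGFRA was, and PDGFD was higher in every high-NFMP steer, whereas the PDGFRB groups overlapped. PDGFA, a ligand of PDGFRA, lay the other way from its receptor, at 24.6, 29.4 and 31.1 CPM against 22.7, 21.2 and 19.7 CPM (log2 fold change 0.42, adjusted p = 0.416). PDGFB, which binds both receptors, ranged from 2.75 to 12.4 CPM within the high-NFMP group alone.

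**Figure D3:**
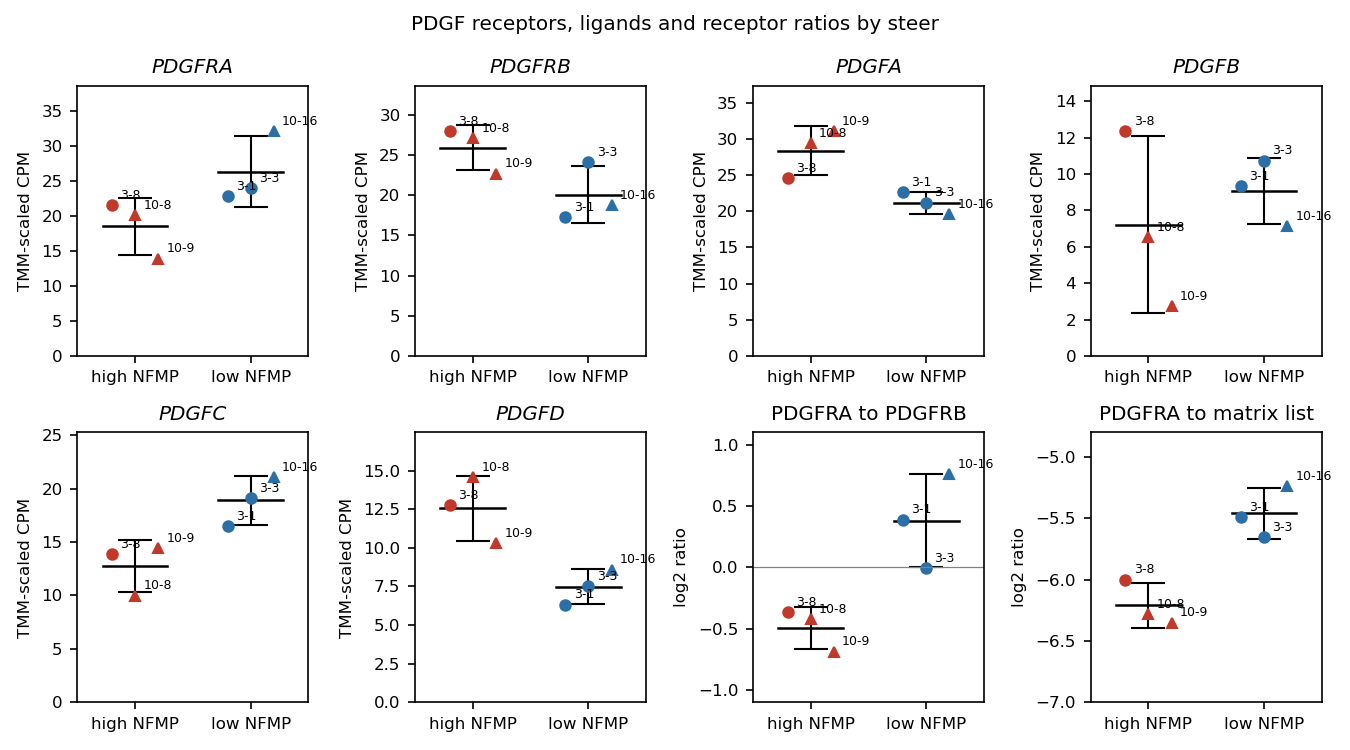
TMM-scaled CPM (vertical axes from 0) of the 2 PDGF receptors and the 4 PDGF ligands in each steer, and the log2 ratio of PDGFRA to PDGFRB and to the summed fibroblast matrix list, with the mean and SD of 3 steers. Red is high NFMP, blue is low NFMP, circles have a first label number of 3 and triangles 10. The groups do not overlap for PDGFRA, PDGFA, PDGFC, PDGFD and both ratios.

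CD34, a surface sialomucin of progenitors and of capillary endothelium, was the steadiest member within the groups. It was at 28.2, 30.2 and 27.0 CPM in the high-NFMP steers and at 20.8, 20.1 and 24.3 CPM in the low-NFMP steers. No steer overlapped with the other group, as for 7.97% of the tested rows in this direction (17.1% in either direction), and the coefficient of variation was 5.67% and 10.6%. The fold change was 1.31 (95% interval 0.995 to 1.73), or 0.39 ± 0.19 on the log2 scale (standard error), with an adjusted p of 0.448 by edgeR. The endothelial list of 12 genes summed to 351, 218 and 335 CPM in the high-NFMP steers and 234, 214 and 247 CPM in the low-NFMP steers. Set against that sum, CD34 had a log2 ratio of -3.35 ± 0.45 in the high-NFMP group and -3.39 ± 0.07 in the low-NFMP group (SD, n = 3 each), a difference of 0.04 (exact permutation p = 1). Steer 10-8 stood apart, with a log2 ratio of -2.83 against -3.62 and -3.61 in the other high-NFMP steers. Without steer 10-8 the difference was -0.22 (exact permutation p = 0.1, the smallest p possible with a steer left out). The 12 endothelial genes had log2 fold changes from -0.46 to 0.93 with a median of 0.26, 8 of them above 0 and 4 below, and none was called by p and fold. Highest in level was FLT1, a VEGF receptor, at 184, 96.6 and 188 CPM in the high-NFMP steers against 91.8, 81.1 and 133 CPM. FLT1 thus made up a large part of the endothelial sum, and a ratio without it was not computed. PECAM1, an adhesion protein, came next at 27.7 against 27.9 CPM. The part of endothelial RNA in the CD34 values was not tested.

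THY1, a membrane glycoprotein of mesenchymal progenitors and fibroblasts, had the widest difference of the members, at 0.62 ± 0.30 on the log2 scale (standard error), or a fold of 1.54 with a 95% interval of 0.977 to 2.42 (adjusted p = 0.466 by edgeR). Its levels were 11.2, 22.3 and 13.9 CPM in the high-NFMP steers and 6.44, 11.3 and 12.9 CPM in the low-NFMP steers. Steer 10-8 was high and steer 3-1 was low, and the groups overlapped. The log2 fold change was 0.32 without steer 10-8 and 0.37 without steer 3-1, and it was 0.86 without steer 10-16 and 0.82 without steer 3-8, where the unadjusted p by edgeR was 0.0286 and 0.0263. With age as a term it was 0.41. The same steers were highest and lowest in the summed fibroblast matrix list (1599 CPM in steer 10-8 and 1050 CPM in steer 3-1) and in the nerve and Schwann cell list (159 and 89.3 CPM). Steer 3-8 came next in both sums (1414 and 155 CPM) but was below steers 3-3 and 10-16 in THY1, and the part of these cells in the THY1 values was not tested. Set against the matrix sum, THY1 differed by 0.35 in log2 ratio (exact permutation p = 0.4), which was 0.14 without steer 3-1, 0.18 without steer 10-8 and 0.58 without steer 3-8. THY1 lies in the annotation within LOC101903835, a long noncoding RNA gene that was counted at most 3 times in a library.

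DLK1, the inhibitory surface protein known as preadipocyte factor, which keeps preadipocytes from maturing, varied more between steers than between groups. It was at 29.0, 16.5 and 10.7 CPM in the high-NFMP steers and at 19.8, 8.10 and 11.5 CPM in the low-NFMP steers. Steer 3-8 was the highest of the 6, and steer 3-1 of the other group came next. The coefficient of variation was 49.7% in the high-NFMP group and 45.8% in the low-NFMP group, where counting error alone would give 6.14% at the mean of 266 counts. Its log2 fold change, 0.51 ± 0.40 (standard error, adjusted p = 0.666 by edgeR), was 0.05 without steer 3-8 and 0.93 without steer 3-1 (unadjusted p = 0.0271 by edgeR), and 0.84 with age as a term.

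The 3 commitment factors had their lower mean in the high-NFMP group, with groups that overlapped and no unadjusted p below 0.05. ZNF423, the zinc finger protein that marks preadipocytes and raises PPARG, was at 53.2, 44.4 and 49.4 CPM in the high-NFMP steers and 62.0, 46.2 and 60.8 CPM in the low-NFMP steers. It was the most even member over the 6 libraries, the highest being 1.4 times the lowest, and its fold change was 0.87 (95% interval 0.66 to 1.15, adjusted p = 0.715 by edgeR). Its log2 fold change of -0.20 was -0.10 without steer 10-8, -0.13 without steer 3-1, -0.11 without steer 10-16, -0.33 without steer 3-3 and -0.07 with age as a term. ZNF521, a related protein known to oppose ZNF423 and EBF1, is named after its values were seen. It was at 33.0, 25.3 and 25.1 CPM against 22.6, 20.5 and 20.4 CPM, without overlap, and differed by 0.39 ± 0.19 on the log2 scale (standard error, adjusted p = 0.468 by edgeR).

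EBF1, a helix-loop-helix factor of the early adipocyte and of B cells, was by far the most counted member, with 2283 to 4142 counts in a library. It held between 43.9% and 55.3% of the counts of the 9 members after scaling, and only 566 of the 15039 tested rows had a higher mean CPM. Its levels were 217, 151 and 162 CPM in the high-NFMP steers and 214, 228 and 181 CPM in the low-NFMP steers, or -0.23 ± 0.20 as log2 fold change with its standard error (adjusted p = 0.684 by edgeR). MS4A1, the B cell surface marker, had between 0 and 4 counts in a library. EBF2, its relative that primes brown and beige preadipocytes, was at 46.7, 28.7 and 35.3 CPM against 54.0, 48.9 and 37.7 CPM, or -0.34 ± 0.22 in the same measure (adjusted p = 0.574). Without steer 3-8, the high-NFMP steer with the most of both, the log2 fold changes were -0.41 for EBF1 and -0.55 for EBF2, with unadjusted p of 0.0419 and 0.0243 and adjusted p of 0.309 and 0.265 by edgeR. Without steer 10-8, the steer with the least of both, they were -0.11 and -0.17, with unadjusted p of 0.623 and 0.466 by edgeR, and with age as a term they were -0.36 and -0.37. The ratio of EBF1 to EBF2 was 4.62, 5.19 and 4.52 with high NFMP and 3.94, 4.63 and 4.73 with low NFMP, a difference of 0.11 in log2 ratio (exact permutation p = 0.6), which was 0.03 without steer 3-1 and 0.05 without steer 10-8. EBF3 and EBF4, the other members of the family, had means of 14.6 and 2.69 CPM and log2 fold changes of -0.01 and 0.54.

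EBF1 and EBF2 were ordered by the first number of the steer label, whereas their NFMP groups overlapped. In the 3 steers with a first number of 3, EBF1 lay between 214 and 228 CPM, and in the 3 with 10 between 151 and 181 CPM. EBF2 lay between 46.7 and 54.0 CPM and between 28.7 and 37.7 CPM in the same steers. THY1 was ordered the other way, at 6.44 to 11.3 CPM against 12.9 to 22.3 CPM. These 3 of the 9 members did not overlap between the label numbers, as did 14.1% of the tested rows. High and low NFMP are spread unevenly over the label numbers (1 high and 2 low with 3, 2 high and 1 low with 10), and with the label number as a term the log2 fold changes for NFMP were -0.12 for EBF1, -0.19 for EBF2 and 0.41 for THY1. Within each label number, EBF2 was lower in every high-NFMP steer than in every low-NFMP steer. Its values were 46.7 against 54.0 and 48.9 CPM with 3, and 28.7 and 35.3 against 37.7 CPM with 10. EBF1 had this order only with 10. LOC112447469, a long noncoding RNA gene that overlaps EBF1 in the annotation, was counted at 1.63% to 2.8% of the EBF1 counts.

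**Figure D4:**
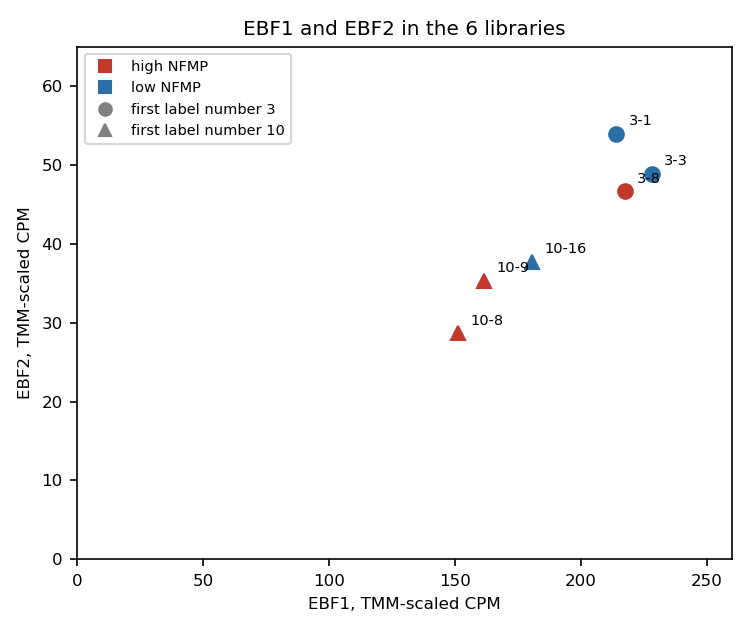
EBF1 (horizontal axis) against EBF2 (vertical axis), both in TMM-scaled CPM from 0, with 1 point per steer in red for high NFMP and blue for low NFMP, and circles and triangles for first label numbers of 3 and 10. The 3 circles lie at 214 to 228 CPM of EBF1 and 46.7 to 54.0 CPM of EBF2, and the 3 triangles at 151 to 181 CPM and 28.7 to 37.7 CPM.

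KLF5, a zinc finger factor that works with C/EBP proteins ahead of PPARG, was the least counted member, with 43, 58 and 17 counts in the high-NFMP steers and 49, 25 and 17 counts in the low-NFMP steers. The groups overlapped, at 1.01 to 3.84 CPM with high NFMP and 1.02 to 2.79 CPM with low NFMP. The log2 fold change was 0.51 with a standard error of 0.51 (95% interval of the fold 0.668 to 3.05, adjusted p = 0.739 by edgeR), so the interval held both no difference and a fold of 2. The log2 fold change was 0.08 without steer 10-8, 1.04 without steer 3-1 and 0.94 with age as a term.

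Of the other adipogenic transcription factors and coregulators on a fixed list, 25 were tested and none passed the p and fold change threshold. The median log2 fold change was 0.24, with 19 above 0 and 6 below. The most counted were ZBTB16 at 995 and 973 CPM and KLF6, which promotes adipogenesis by repressing DLK1, at 198 and 149 CPM (0.41 ± 0.18 on the log2 scale, adjusted p = 0.399 by edgeR). An unadjusted p below 0.05, which 11.5% of all tested rows had, was seen for 4 higher genes (KLF6, KLF2, SREBF1 and KLF9) and 1 lower gene (KLF7), named after their values were seen. KLF9, which promotes adipogenesis, was at 26.3, 26.1 and 21.3 CPM in the high-NFMP steers and 13.0, 12.7 and 16.8 CPM in the low-NFMP steers (log2 fold change 0.79, adjusted p = 0.115). KLF2, an inhibitor of adipogenesis, was at 48.4, 59.3 and 54.1 CPM against 23.5, 26.7 and 53.8 CPM (log2 fold change 0.64, adjusted p = 0.408). SREBF1, a regulator of lipid synthesis, was at 24.25, 45.2 and 25.7 CPM against 24.6, 15.9 and 20.6 CPM (log2 fold change 0.64, adjusted p = 0.354). KLF7, another inhibitor, was at 23.3, 19.0 and 19.0 CPM against 26.7, 25.01 and 29.9 CPM (log2 fold change -0.41, adjusted p = 0.435). PPARG stood at 16.8 CPM in steer 3-8 and between 7.75 and 8.43 CPM in the other 5 steers, so that the mean of 11.0 ± 5.06 against 8.13 ± 0.34 CPM (SD, n = 3 each) rests on that steer. CEBPD was at 124 ± 45.0 against 118 ± 56.6 CPM, and CEBPB had at most 1 count in a library.

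Among 16 tested further markers of the progenitors, HIC1 passed the p and fold change threshold upward and DPP4 downward, as 2.53% and 1.36% of all tested rows did. HIC1, a repressor that marks quiescent mesenchymal progenitors, had 74, 97 and 111 counts in the high-NFMP steers and 40, 43 and 35 in the low-NFMP steers, which is 1.37 ± 0.31 on the log2 scale after scaling (standard error, adjusted p = 0.0661 by edgeR). DPP4, a surface peptidase of early adipose progenitors, had 34, 14 and 12 counts against 71, 42 and 26, with overlap between the groups, at -1.09 ± 0.50 in the same measure (adjusted p = 0.42). The 2 most counted, VIM and TCF7L2, were at 386 against 287 CPM and 84.6 against 75.6 CPM, and the median log2 fold change of the 16 was 0.16. Of 15 tested signals that act on preadipocytes, SFRP1 and BMP7 passed the threshold upward, as 2.53% of all tested rows did. Their means were at most 1.96 CPM, with adjusted p of 0.379 and 0.433 by edgeR. HES1 and FGF1, the most counted of the signals, had log2 fold changes of -0.20 and 0.26.

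The 17 mature adipocyte genes, all tested, had log2 fold changes above 0, with a median of 0.47, and FASN, the fatty acid synthase, was the 1 that passed the threshold (1.11 ± 0.31 on the log2 scale, adjusted p = 0.178 by edgeR). They summed to 1562, 1333 and 1149 CPM in the high-NFMP steers and 977, 1017 and 1064 CPM in the low-NFMP steers, without overlap. For some genes, such as LEP and FABP4, the higher mean with high NFMP came from steer 3-8. LEP was at 11.5 CPM in that steer, while steers 10-8 and 10-9 were below every low-NFMP steer. FABP4 was at 294, 96.3 and 60.7 CPM against 96.3, 122 and 77.0 CPM. In 4 of the 17 genes (ADIPOQ, CIDEC, LIPE and CIDEA) every high-NFMP steer was above every low-NFMP steer. Steer 3-8, the highest in the sum of the 17 genes, was the highest in 2 of the 9 members, DLK1 and PDGFRB, and not in the other 7, and the part of adipocyte RNA in the members' values was not tested. Several of these genes are also expressed by muscle fibres, among them GPD1, the most counted at 398 against 344 CPM, and PLIN4, at 146 against 105 CPM. The 12 fibroblast matrix genes had no member past the threshold and a median log2 fold change of 0.28, with DCN at 487 against 393 CPM and SPARC at 260 against 226 CPM. In the muscle fibre list, led by TTN and ACTA1, none of 10 passed, and the median was 0.22.

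**Figure D5:**
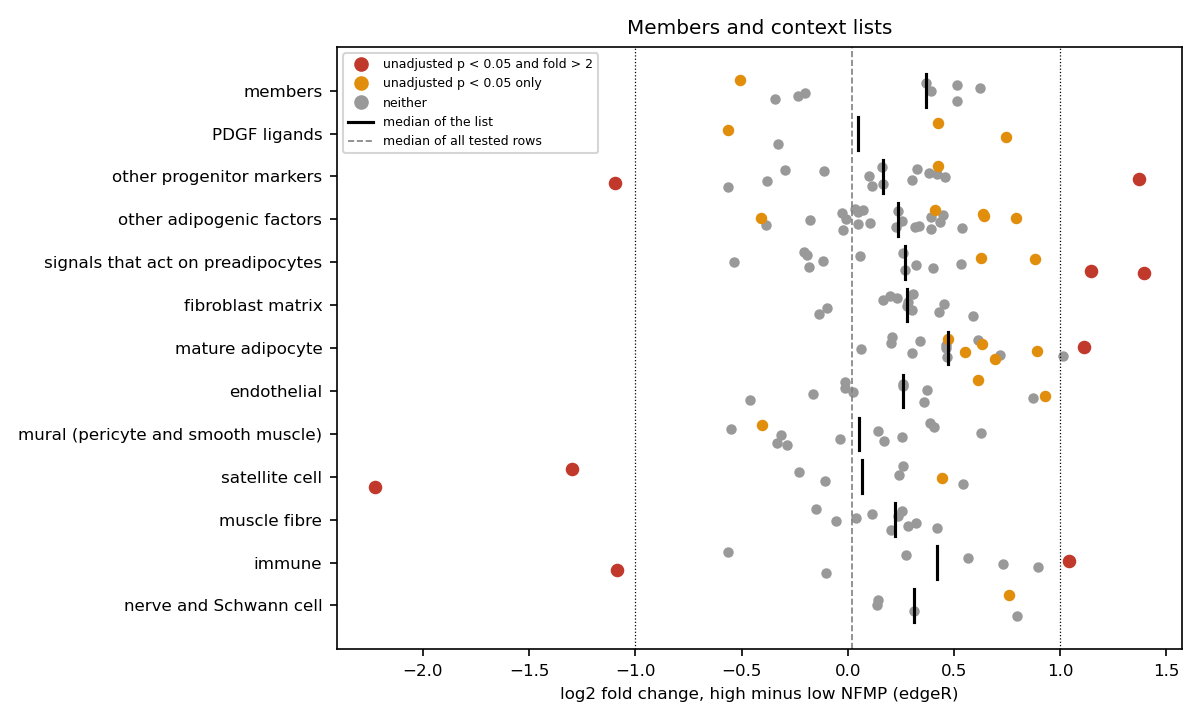
The log2 fold change (horizontal axis, high minus low NFMP, edgeR) of each tested member and of each tested gene of 12 context lists, coloured by the threshold it passed, with the median of each list in black and that of all tested rows dashed. The mature adipocyte genes lie above 0 with all steers in the fit, some of them, such as LEP and FABP4, through the values of steer 3-8. The members lie on both sides and none is past a fold of 2.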

How the data were processed

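Lexogen 3′ mRNA libraries were sequenced as single-end reads from 6 steers, and the authors deposited raw counts per gene symbol (23015 rows, of which 176 repeat a symbol). Their methods name UMD3.1, Tophat2 and HTSeq in one place and Bowtie2 with unique and multiple alignments in another. The labels name Bowtie2 and bedtools. The sources used here do not say which of these made the counts or whether strand was used, so reads of overlapping genes cannot be separated. Library pairs differed by far more than sampling noise.

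In R 4.3.3, edgeR 4.0.16 was fitted to all rows (filter of minimum count 10 and total 15, which kept 15039 rows, TMM, robust quasi-likelihood). Standard errors came from the log2 fold change and its F statistic, and intervals from its t distribution. Ratios used CPM with a pseudocount of 0.5. Alternatives included DESeq2 1.42.0 and limma 3.58.1. Procedures were tested on simulated data. Annotation overlaps came from the RefSeq table of ARS-UCD2.0, another assembly, so no coordinates are given. No sequences were used. TCF21 and PAX7 of the context lists were not analysed here, nor were the 2 ratios planned with CEBPA. CCN5 of the lists was counted under its other symbol, WISP2. Named are all members, context genes past a threshold, PPARG and the 2 most counted genes of a list, and others only as stated. The members and lists were chosen with earlier results of these data known. The edgeR p-values set the difference between the groups against the spread between these steers, estimated with information from all tested rows. The authors used quantile normalization, which was an alternative here.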

Additional observations from a re-analysis of the deposited data

How the results depend on the processing

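In no alternative did a member pass the p and fold change threshold or an adjusted p below 0.05, and no member's log2 fold change changed sign. Those tried were 2 other filters (none, or 10 counts or more throughout), RLE factors or plain totals, DESeq2, limma after quantile normalization, a term for label number or age, summing repeated symbols, and leaving out each steer. PDGFRA had an unadjusted p below 0.05 in 12 of 15 alternatives, with log2 fold changes from -0.68 (age as a term) to -0.31 (without steer 10-16), and adjusted p from 0.261 to 0.718. Of the same 15, an unadjusted p below 0.05 was reached in 3 for THY1, 2 each for PDGFRB and CD34, 1 each for DLK1, EBF1 and EBF2, and 0 for ZNF423 and KLF5. With age as a term the log2 fold changes of the others were 0.14 for PDGFRB, 0.84 for DLK1, 0.41 for THY1, 0.39 for CD34, -0.07 for ZNF423, -0.36 for EBF1, -0.37 for EBF2 and 0.94 for KLF5. The members without overlap numbered between 2 and 5 with a steer left out. The 5 without steer 3-8 were PDGFRA, CD34, THY1, EBF1 and EBF2, when 34.6% of all tested rows did not overlap, and without steer 3-3 there were 4, against 27.1% of rows.

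Over all tested rows the count past the p and fold change threshold was 969 without a filter and 364 with at least 10 counts in every library, where fewer rows were tested, against 586. The count at an adjusted p below 0.05 was 103, and 240 without a filter, 287 by DESeq2, 0 by limma after quantile normalization (1625 rows had an unadjusted p below 0.05) and 31 with age as a term. It was between 28 and 82 with a steer left out (33 without 3-8, 41 without 10-8, 28 without 3-3 and 63 without 10-16). The cause was not tested. Of the rows past the p and fold change threshold 381 were higher and 205 lower with high NFMP, and without steer 3-8 the numbers were 366 and 378. The log2 ratio of PDGFRA to PDGFRB lay between -1.06 and -0.68 in all alternatives run. Only 2 of the other ratios changed sign. PDGFRB to the mural list was between -0.21 (without steer 3-8) and 0.41 with a steer left out, and CD34 to the endothelial list was between -0.22 (without steer 10-8) and 0.17, and -0.018 with a pseudocount of 5.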

Other observations

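Among genes of other cell types, the satellite cell list held 2 genes that passed the p and fold change threshold downward, of 8 tested, as 1.36% of all tested rows did. The list had 4 genes above 0 and 4 below, with a median log2 fold change of 0.07, and MET, a growth factor receptor named after its values were seen, had its 3 higher values with high NFMP (log2 fold change 0.44, adjusted p = 0.364 by edgeR). CHRNA1, the acetylcholine receptor subunit of muscle, was at 28.7, 48.4 and 43.5 CPM in the high-NFMP steers and 97.9, 128 and 70.4 CPM in the low-NFMP steers, or -1.30 ± 0.25 on the log2 scale (standard error, adjusted p = 0.0301 by edgeR). PAX3, a factor of myogenic precursors, had 2, 8 and 3 counts against 35, 18 and 15 (log2 fold change -2.22, adjusted p = 0.185). MYF5, an early myogenic factor removed by the filter, had 39, 26 and 10 counts in the high-NFMP steers and 7, 6 and 1 in the low-NFMP steers, and it is named after its values were seen. SDC4, the most counted of the list, was at 133 against 111 CPM.

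In the immune list of 8 tested genes AIF1, a macrophage gene, passed the threshold upward (log2 fold change 1.04, adjusted p = 0.388 by edgeR) and ITGAM downward (-1.08, adjusted p = 0.404). Of all tested rows 2.53% passed upward and 1.36% downward. Both genes had group means of at most 4.22 CPM. The most counted, CD163 and PTPRC, were at 9.30 against 13.7 CPM and 8.14 against 6.72 CPM. None of the 5 tested nerve and Schwann cell genes passed the threshold, and MBP and PMP22, the most counted, were at 52.9 against 31.3 CPM and 41.7 against 37.8 CPM. Of the 12 mural genes none passed, and DES and ABCC9 were at 1958 against 1499 CPM and 124 against 164 CPM.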
